A study of Mus musculus with 52 samples.

Results

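Glucocorticoids are steroid hormones of the adrenal cortex that bind a receptor in the cytoplasm, the product of Nr3c1, which then enters the nucleus and binds DNA. A small group of genes responds to the bound receptor in many tissues. Fkbp5, Tsc22d3, Sgk1 and Klf9 belong to that group, and the metallothionein genes Mt1 and Mt2 respond both to glucocorticoids and to zinc and other metals. These 7 genes were described across the tissues of mice that lack the Tug1 locus, which encodes a long noncoding RNA. Members were found by gene symbol. They are 7 of the 39144 genes listed in at least 1 tissue, all protein-coding, and each of them had a value in all 8 tissues (MEFs counted as a tissue). Coordinates are those of GRCm38 (mm10).

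RNA was sequenced from wild-type males and from males homozygous for Tug1_tm1.1Vlcg (Tug1-/-), in which a lacZ reporter takes the place of the gene body and the promoter and first exon remain. The series has 52 samples, and 46 of them lie behind the values used here. Testes came from 4 wild-type mice, 4 Tug1-/- mice and 3 rescue mice. Prostate had 3 wild-type samples but only 2 from Tug1-/- mice. Spleen, liver, heart, eyes and MEFs (primary fibroblasts of littermate embryos, at passage 2) had 3 samples in each genotype. These 46 samples are labelled with a C57BL/6J/129S6 background. In testes the labels give wild-type mice as free of the neomycin cassette and Tug1-/- and rescue mice as carrying Neo and LacZ, whereas in the other tissues both genotypes are labelled as free of it. Rescue mice were Tug1-/- and also carried tg(Tug1), a Tug1 cDNA under a doxycycline-controlled promoter, and CAGs-rtTA3, the transactivator driven by a ubiquitous promoter, and they were kept on doxycycline food, given to their mothers from the plug date. A rescue group of this kind has doxycycline and the transactivator in addition to Tug1 RNA, which neither other group is stated to have. The transgene came from 2 founders with random integration. The age of the adult mice, the hour of dissection and whether tissues came from the same mice are not given in the sources used here. Brain was compared from libraries outside this series, and hybrid testes (6 samples) were not analysed here.

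The values are means per group of TPM, the abundance of a transcript relative to all transcripts of its library, computed by the authors. TPM corrects for gene length and depth, so that levels of different genes can be set side by side. Values of single samples were not used here, and neither were the authors' own standard errors and p-values, so no difference below is given with a spread between replicates or a test, and "higher" or "lower" describes the ratio of 2 group means. A gene was counted as higher or lower in a comparison when the ratio was at least 1.5-fold, or 0.58 on the log2 scale, among genes with a mean of at least 1 TPM. The depth of each library is unknown. In bulk tissue, a larger share of cells that express a gene and more RNA per cell cannot be told apart. Tug1 itself was at 2.21% of the wild-type mean in Tug1-/- testes and at 0.0825% to 0.512% in the other 7 tissues. Of 24 tissue markers, 23 had their highest level in their own tissue, and the exception was Spink1 in prostate.

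Across the 56 pairs of gene and tissue, the Tug1-/- mean was at least 1.5-fold higher in 15 and at least 1.5-fold lower in 0. The 15 lay in 5 tissues: 5 of the 7 genes in heart, 4 in liver, 3 in spleen, 2 in prostate and 1 in eyes. No gene passed the limit in testes, brain or MEFs. The heat map of the ratios shows all of these values.

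**Figure D1:**
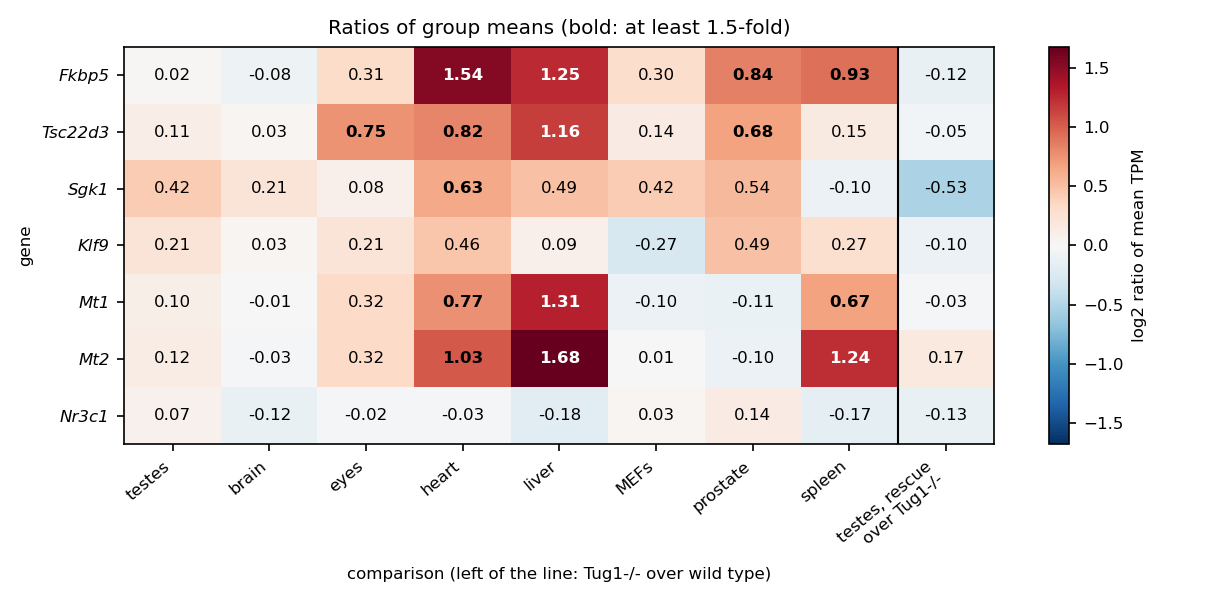
Log2 ratio of the group mean TPM for each of the 7 genes (rows) in each comparison (columns), with Tug1-/- over wild type left of the line and rescue over Tug1-/- in testes right of it. Bold values are at least 1.5-fold: heart and liver hold 5 and 4 of them, the Nr3c1 row holds none, and the columns of testes, brain and MEFs hold none.

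Upstream sequences were read because the members are known as targets of DNA-binding factors and several of them were higher together. From the RefSeq promoter table for GRCm38.p6, 13 windows for 6 of the 7 genes were used, each from 250 bases before to 50 bases after a transcription start. Nr3c1 was left out of this search. The glucocorticoid receptor binds as a dimer to the palindrome GNACANNNTGTNC, and metal-responsive transcription factor 1 (Mtf1) binds metal response elements with the core TGCACNC or TGCGCNC. Both were searched on both strands. The receptor palindrome occurred in 0.475% of 32851 promoters, and in those of the members it occurred in Mt1 and in 1 of 6 Sgk1 windows. The windows of Fkbp5, Tsc22d3, Klf9 and Mt2 held none, and sites outside the windows were not searched. The metal core is short and occurred at least 1 time in 25.7% of promoters. The Mt1 window had 3 matches and the Mt2 window had 4, numbers reached by 1.97% and 0.517% of promoters. The stretches below are shown because they hold these matches, which are in capitals. All are printed as the + strand, and the last metal core of Mt2, GTGTGCA, is a match on the other strand.
Sgk1, chr10:21993678-21993738, with the receptor palindrome: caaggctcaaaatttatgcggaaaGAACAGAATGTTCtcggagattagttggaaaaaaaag
Mt1, chr8:94178839-94179088, with the receptor palindrome and then 1 metal core: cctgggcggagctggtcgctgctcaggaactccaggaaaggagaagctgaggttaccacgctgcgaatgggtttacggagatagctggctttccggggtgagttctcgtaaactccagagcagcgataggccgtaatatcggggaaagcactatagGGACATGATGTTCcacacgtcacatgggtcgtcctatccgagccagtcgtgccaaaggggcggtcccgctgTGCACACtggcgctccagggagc
Mt2, chr8:94172368-94172617, with 3 metal cores: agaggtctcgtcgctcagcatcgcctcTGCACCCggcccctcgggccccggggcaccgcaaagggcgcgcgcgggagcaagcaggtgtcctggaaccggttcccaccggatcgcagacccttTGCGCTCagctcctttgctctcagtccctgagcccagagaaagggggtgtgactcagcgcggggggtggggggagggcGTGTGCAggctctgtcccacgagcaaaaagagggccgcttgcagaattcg
In Mt1 the palindrome GGACATGATGTTC began 94 bases before the start, and in Sgk1 GAACAGAATGTTC began 188 bases before that start. The remaining matches in Mt1 (2) and Mt2 (1) lay after the start of their RefSeq window and are not shown. Distances are counted from that start, which is not the annotated gene start given below for Mt1 and Mt2. A match of letters is a description of the sequence, and binding at these places was not measured here.

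Nr3c1, which encodes the glucocorticoid receptor, was close to its wild-type level in each tissue. Its log2 ratio of Tug1-/- over wild type ran from -0.18 in liver to 0.14 in prostate, and 3 of 8 tissues had the higher mean in Tug1-/- mice. Wild-type levels were highest in spleen at 91.4 TPM and in brain at 74.6 TPM, and lowest in testes at 6.35 TPM, 14.4-fold below spleen. In heart the mean was 32.7 TPM in wild-type mice and 32 TPM in Tug1-/- mice. In liver it was 39.9 and 35.1 TPM, and in spleen 91.4 and 81.2 TPM. Receptor transcript was thus no higher in the 3 tissues with the most members past the limit.

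Other genes of receptor handling were read from a list of 10, which holds the Hsp90 chaperones and their partners, the coactivators Ncoa1 and Ncoa2, the mineralocorticoid receptor Nr3c2, and Hsd11b1 and Hsd11b2, which activate and inactivate corticosterone. In spleen 3 of 9 measured genes were at least 1.5-fold higher, as were 5.13% of all spleen genes. All 3 were chaperones or co-chaperones. Stip1, which links Hsp70 to Hsp90, had means of 169 TPM in wild-type mice and 294 TPM in Tug1-/- mice, Fkbp4, a co-chaperone of steroid receptors, had 134 and 209 TPM, and Hsp90aa1 had 245 and 374 TPM. In heart none of 9 passed the limit, although all 9 had ratios above 0, as did 75.3% of all heart genes, and the median log2 ratio was 0.38 against 0.10 for all genes, with Stip1 at 0.55 and Hsp90aa1 at 0.48. In liver 1 of 9 passed, Hsp90aa1 at 56.2 and 85.1 TPM. Eyes and prostate each had 1 of 9, in both cases Hsd11b1 (2.63 and 4.44 TPM in eyes, 1.36 and 2.59 TPM in prostate), and testes, brain and MEFs had 0. In liver, where Hsd11b1 is most abundant of these tissues, it had 373 and 329 TPM, and is named there after its values were seen. Of all genes 3.22% were higher in liver, 2.97% in eyes and 4.93% in prostate.

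Fkbp5 encodes FKBP51, a co-chaperone that lowers the receptor's affinity for hormone and is itself induced by it, a short feedback loop. The gene (ENSMUSG00000024222.16) lies at chr17:28399095-28517524 on the - strand. It had the highest ratio of the members in heart and prostate, and it was higher in 4 tissues. In heart the mean was 4.83 TPM in wild-type mice and 14.1 TPM in Tug1-/- mice, a 2.91-fold ratio. In liver it was 6.78 and 16.1 TPM, or 2.37-fold. In spleen it was 28.9 and 55.3 TPM, or 1.91-fold, and in prostate 20.4 and 36.4 TPM, or 1.78-fold. Heart and liver are the tissues with the lowest wild-type level of Fkbp5, and the range of wild-type means over tissues was 7.03-fold. Eyes had 16.5 and 20.4 TPM and MEFs had 22.4 and 27.6 TPM, both below the limit. In brain the means were 29.8 and 28.2 TPM, and in testes, the tissue with the highest wild-type level, they were 33.9 and 34.5 TPM. A small RNA gene, Gm22146, lies within Fkbp5 on the opposite strand, and the library kit does not mark strand.

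Tsc22d3 encodes GILZ, a leucine zipper protein through which glucocorticoids restrain inflammation in lymphocytes and macrophages. The gene (ENSMUSG00000031431.13) lies at chrX:140539528-140600659 on the - strand. It was higher in liver, heart, eyes and prostate. Liver had 48.8 TPM in wild-type mice and 109 TPM in Tug1-/- mice, a 2.24-fold ratio. Heart had 59.3 and 105 TPM, or 1.77-fold. Eyes had 55.3 and 93.1 TPM, or 1.68-fold, and prostate had 31.2 and 50.2 TPM, or 1.61-fold. Spleen, rich in lymphocytes, had by far the highest wild-type level, 229 TPM, and there the Tug1-/- mean of 253 TPM was below the limit. Brain had 116 and 119 TPM, MEFs 20.5 and 22.5 TPM, and testes 8.49 and 9.17 TPM, the lowest level. Tsc22d3 and Fkbp5 thus shared heart, liver and prostate, while spleen was past the limit for Fkbp5 alone and eyes for Tsc22d3 alone.

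Sgk1 encodes a kinase that raises sodium uptake through epithelial channels and is induced by both glucocorticoids and mineralocorticoids. The gene (ENSMUSG00000019970.15) lies at chr10:21882184-21999903 on the + strand. It passed the limit in heart alone, with 28.5 TPM in wild-type mice and 44.1 TPM in Tug1-/- mice, 1.55-fold. That ratio lies just past the limit and fell below it when log2 ratios were centred on the median of all genes (0.53) or when TPM was rescaled without mitochondrial and the 50 highest genes (0.51). Prostate had 290 and 423 TPM, or 1.46-fold, just short of the limit. Liver had 10.3 and 14.4 TPM and MEFs had 30.6 and 40.9 TPM. Brain had 124 and 144 TPM, eyes had 328 and 348 TPM, and spleen, the only tissue with a lower mean in Tug1-/- mice, had 37.6 and 35.2 TPM. Wild-type levels of Sgk1 covered an 82.2-fold range, with eyes at the top and testes (3.99 TPM) at the bottom.

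Klf9, a zinc finger transcription factor that responds to glucocorticoids and thyroid hormone, did not pass the limit in any tissue. The gene (ENSMUSG00000033863.1) lies at chr19:23141226-23166911 on the + strand. Its highest ratios were in prostate, with 42.7 TPM in wild-type mice and 60 TPM in Tug1-/- mice, and in heart, with 63.4 and 87.4 TPM, log2 ratios of 0.49 and 0.46. The lowest was in MEFs, with 31.5 and 26.1 TPM. Brain had the highest level, 250 and 254 TPM, followed by eyes with 109 and 126 TPM. Liver had 90.6 and 96.1 TPM, and spleen, at the other end, had 20.2 and 24.3 TPM. The microRNA gene Mir1192 lies within Klf9 on the same strand.

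**Figure D2:**
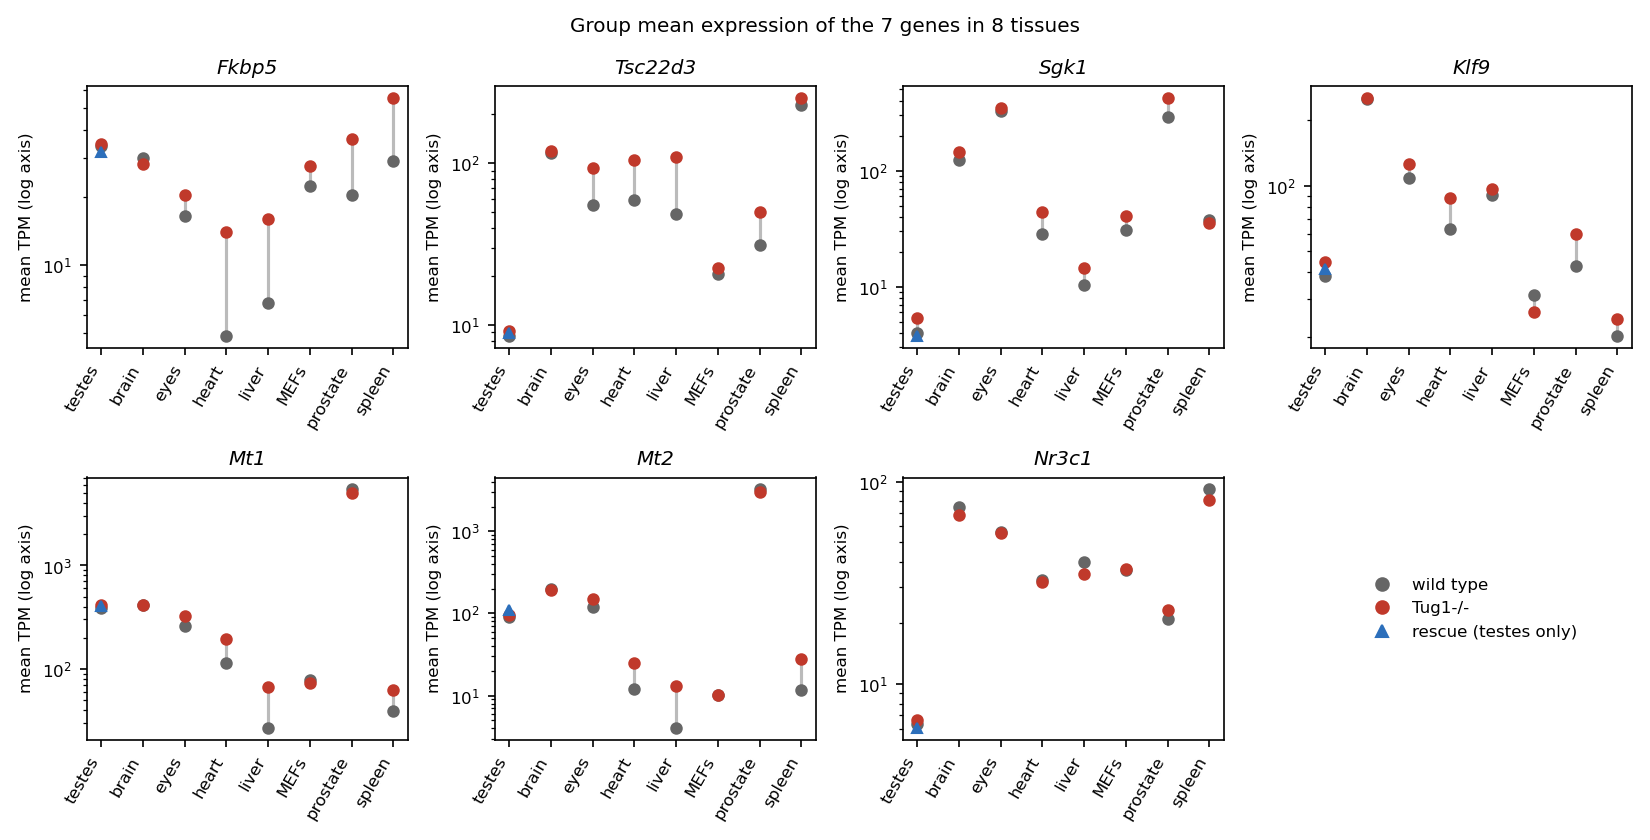
Group mean TPM on a log axis for each of the 7 genes in 8 tissues, with wild type in grey, Tug1-/- in red and rescue testes in blue; each panel has its own axis, and no error bars are drawn because single samples were not used. The red points lie above the grey ones for Fkbp5 in heart (14.1 and 4.83 TPM) and liver (16.1 and 6.78 TPM), and the points of Nr3c1 nearly coincide.

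Metallothioneins are small cysteine-rich proteins that hold zinc and copper. Mt2 (ENSMUSG00000031762.7, chr8:94172664-94173568) and Mt1 (ENSMUSG00000031765.8, chr8:94179082-94180327) lie head to tail on the + strand, with 5513 bases between them. Both were higher in heart, liver and spleen. In liver Mt1 had 26.8 TPM in wild-type mice and 66.6 TPM in Tug1-/- mice, a 2.48-fold ratio, and Mt2 had 4.04 and 13 TPM, or 3.21-fold, the highest ratio of any member in any tissue. In heart Mt1 had 115 and 195 TPM, or 1.70-fold, and Mt2 had 12 and 24.6 TPM, or 2.05-fold. In spleen Mt1 had 39.2 and 62.3 TPM, or 1.59-fold, and Mt2 had 11.8 and 28 TPM, or 2.37-fold. In all 3 of these tissues the ratio was larger for Mt2, so that the excess of Mt1 over Mt2 was smaller in Tug1-/- mice: 6.65-fold in wild-type and 5.14-fold in Tug1-/- liver, 9.56 and 7.95-fold in heart, and 3.32 and 2.23-fold in spleen.

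In the other tissues the metallothioneins differed little between the genotypes. In eyes both had a log2 ratio of 0.32, from 260 and 326 TPM for Mt1 and 120 and 150 TPM for Mt2. Prostate had by far the highest levels, 5440.6 TPM of Mt1 and 3232.6 TPM of Mt2 in wild type, and the Tug1-/- means of 5032.7 and 3016.2 TPM were slightly lower. Prostate thus had higher Fkbp5 and Tsc22d3 without higher Mt1 or Mt2, whereas heart and liver had all 4 past the limit. Brain had 419 and 416 TPM of Mt1 and 196 and 192 TPM of Mt2. MEFs had 78.2 and 73 TPM of Mt1, and 10.3 TPM of Mt2 in both genotypes.

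Liver, with the highest ratios, had the lowest wild-type levels of both genes, 203-fold below prostate for Mt1 and 801-fold below it for Mt2. For Mt2, counting precision outside testes, which has no count, was lowest in liver and MEFs. Its mean normalized read count, over both genotypes, was 88.6 in liver and 63 in MEFs, against 178 in spleen and 219 in heart. That of Mt1 was lowest in spleen at 954, with 977 in MEFs and 1034.6 in liver. The predicted gene Gm45774 overlaps Mt2 on the opposite strand, and reads of the pair cannot be assigned without strand.

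Other genes of zinc handling were read from a list of 8 that holds Mt3, Mt4, Mtf1 and 5 zinc and manganese transporters. Between 5 and 7 of them reached the minimum level in each tissue, Mt4 in none. No measured gene was at least 1.5-fold higher or lower in any of the 8 tissues, and the medians ran from -0.12 in eyes to 0.15 in prostate on the log2 scale. The zinc exporter Slc30a1, a direct target of Mtf1, had 27 TPM in liver of wild-type mice and 23.7 TPM in that of Tug1-/- mice, 11 and 10.9 TPM in heart, and 26.8 and 22.1 TPM in spleen. Mt3, the neuronal metallothionein, had 581 and 678 TPM in brain and 540 and 572 TPM in prostate. Slc30a1, and Mt3 in prostate, are named after their values were seen. Of the closest paralogs of the members, Tsc22d4 was higher in liver (2.25 and 4.17 TPM), Tsc22d1 was lower there (18.9 and 10.4 TPM), and Fkbp4 was higher in spleen as given above. No other measured paralog passed the limit in any tissue.

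The members' counts were read beside those of all genes. In heart 5 of 7 members were higher and 0 lower, where 1.76% of 13701 genes were higher and 1.98% lower, and the median log2 ratio was 0.77 for the members and 0.10 for all genes. In liver 4 of 7 were higher, against 3.22% of 11849 genes higher and 2.42% lower, with medians of 1.16 and 0.01. In spleen 3 of 7 were higher, against 5.13% of 16810 genes higher and 4.79% lower, with medians of 0.27 and -0.11. In prostate 2 of 7 were higher, against 4.93% higher and 2.27% lower, with medians of 0.49 and 0.04. In eyes 1 of 7 was higher, against 2.97% higher and 4.23% lower, with medians of 0.31 and -0.11. The members were picked with results of these data known, so these counts describe the 7 genes and are not a test of them.

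In testes, brain and MEFs no member passed the limit in either direction. There 2.49% of genes were higher and 3.07% lower in testes, 1.88% and 3.24% in brain, and 3.22% and 3.62% in MEFs. The member medians were 0.11, -0.01 and 0.03 on the log2 scale. All 7 members had ratios above 0 in testes, none of them past 0.42, the value of Sgk1, and 62.1% of all genes there had ratios above 0.

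Recurrence over tissues was counted among the 9587 genes with at least 1 TPM in all 8 tissues. Fkbp5 and Tsc22d3 were at least 1.5-fold higher in 4 of 8 tissues, and 18 genes (0.188%) were higher in at least 4. Mt1 and Mt2 were higher in 3, and 0.511% of genes were higher in at least 3, and 1.44% were higher in at least 2. The 18 were led by Rnf185, higher in 8 tissues, and by Cd59b, Rps4l and Selenom, higher in 7 each. The heat shock genes Hspa1b and Hsph1 were also among the 18, higher in 4 each. All of these are named here after their values were seen. The tissues of 1 mouse are not independent samples, and whether the tissues shared mice is not given.

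In testes the rescue group was also read. Fkbp5 had 33.9 TPM in wild type, 34.5 TPM in Tug1-/- and 31.8 TPM in rescue mice. Mt1 had 387, 415 and 407 TPM and Mt2 had 89.3, 97 and 109 TPM in the same order. Klf9 had 38.4, 44.3 and 41.5 TPM, Tsc22d3 had 8.49, 9.17 and 8.87 TPM, and Nr3c1 had 6.35, 6.65 and 6.06 TPM. The 3 groups of testes were thus close for these 6 genes. Sgk1 had 3.99 TPM in wild type, 5.35 TPM in Tug1-/- and 3.72 TPM in rescue mice, so that its log2 ratio was 0.42 for Tug1-/- over wild type and -0.53 for rescue over Tug1-/-. These comparisons share the Tug1-/- samples, and both ratios were below the limit. No member passed it for rescue against Tug1-/-, where 1.17% of genes were higher and 2.78% lower, or for rescue against wild type, where 2.47% were higher and 4.49% lower.

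**Figure D3:**
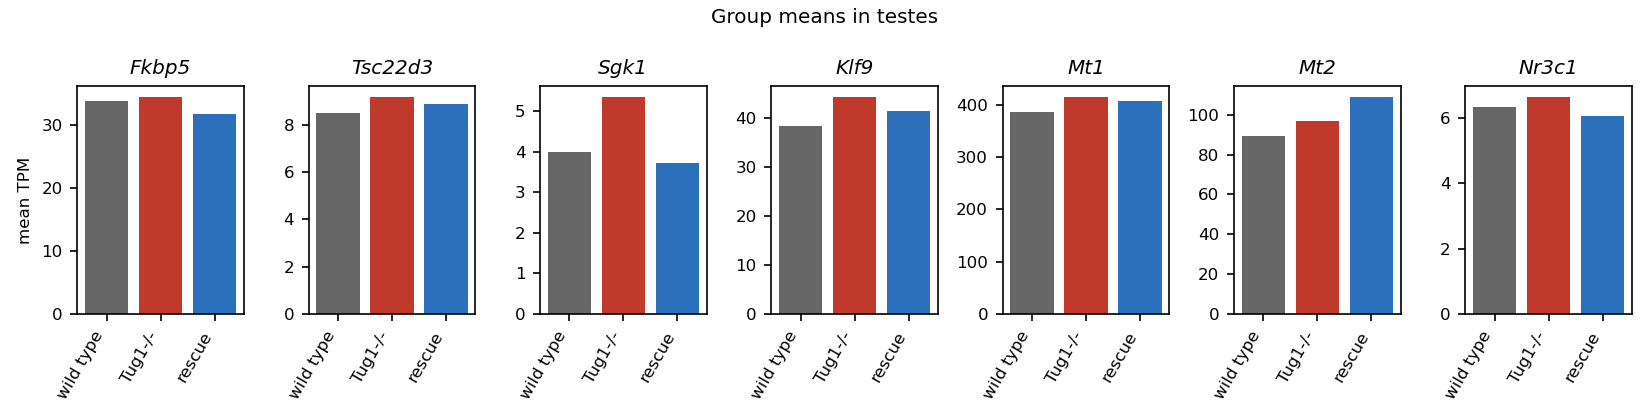
Group mean TPM in testes for each of the 7 genes, with 1 bar each for wild type, Tug1-/- and rescue; axes start at 0 and differ between panels, and no error bars are drawn because single samples were not used. Sgk1 has its highest bar in Tug1-/- (5.35 TPM, against 3.99 and 3.72 TPM), and the bars of Fkbp5 and Mt1 are nearly level.

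A further 18 genes known to be induced by glucocorticoids were read in the same way, as neighbours of the members in the same response. This list too was chosen with earlier results of these data known. In heart 9 of 18 were at least 1.5-fold higher and 1 lower, with a median log2 ratio of 0.60. Of all heart genes 1.76% were higher and 1.98% lower, with a median of 0.10. Fam107a, an actin-associated protein, had 3.24 TPM in wild-type mice and 12.2 TPM in Tug1-/- mice, Zbtb16, the transcription factor PLZF, had 8.87 and 27.5 TPM, Arrdc2, an arrestin-domain protein, had 4.92 and 13.6 TPM, and the kinase gene Map3k6 had 4.68 and 11.6 TPM. The 1 lower gene was Angptl4, an inhibitor of lipoprotein lipase, with 9.97 and 5.23 TPM, and is named after its values were seen.

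In liver 6 of 16 were higher and 1 lower, with a median of 0.52. Of all liver genes 3.22% were higher and 2.42% lower, with a median of 0.01. Ddit4, an inhibitor of mTOR signalling, had 5.06 and 20.9 TPM, Zbtb16 had 2.2 and 8.02 TPM, and Cebpd, a transcription factor of the acute response, had 1.39 and 3.26 TPM. The lower gene was Bcl6, a transcriptional repressor, with 20 and 8.1 TPM. Tat, the liver's tyrosine aminotransferase and a textbook target of the receptor, had 1680.9 and 3038.4 TPM, and is named after its value was seen.

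In prostate 6 of 17 were higher and 0 lower, with a median of 0.33, against 4.93% and 2.27% of all genes and a median of 0.04. The 6 included Fam107a (0.621 and 1.83 TPM), Sult1a1, a sulfotransferase (8.76 and 16.4 TPM), and Plin4, a lipid droplet protein (14 and 25.7 TPM). In eyes 6 of 17 were higher and 0 lower, with a median of 0.29, against 2.97% and 4.23% of all genes and a median of -0.11. The highest ratio was that of Pdk4, which restrains glucose oxidation (21.6 and 64 TPM), followed by Plin4 (23.6 and 47.2 TPM). In spleen 5 of 16 were higher and 0 lower, with a median of 0.22, against 5.13% and 4.79% of all genes and a median of -0.11. Among the 5 were Pdk4 (14.8 and 30.3 TPM), Fam107a (2.17 and 4.26 TPM) and the transcription factor Klf15 (5.34 and 10.1 TPM).

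The tissues in which the members stayed below the limit had few such genes. Testes had 1 of 17 higher (Angptl4, 2.3 and 3.55 TPM), MEFs had 1 of 12 higher (Nfkbia, the inhibitor of NF-kB, 40.6 and 123 TPM), and brain had 0 of 17 higher and 1 lower (Plin4, 5.12 and 2.97 TPM). Of all genes 2.49% were higher in testes and 3.22% in MEFs, and in brain 1.88% were higher and 3.24% lower. Zbtb16 passed the limit in the same 5 tissues in which at least 1 member did, heart, liver, eyes, prostate and spleen. It had 34 and 23.6 TPM in brain, and is named here after its values were seen. Dusp1 of the same list, also named after its values were seen, had negative log2 ratios in these 5 tissues, from -0.57 in liver to -0.20 in heart. The plot of these genes by tissue sets them beside Fkbp5, Tsc22d3 and Nr3c1.

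**Figure D4:**
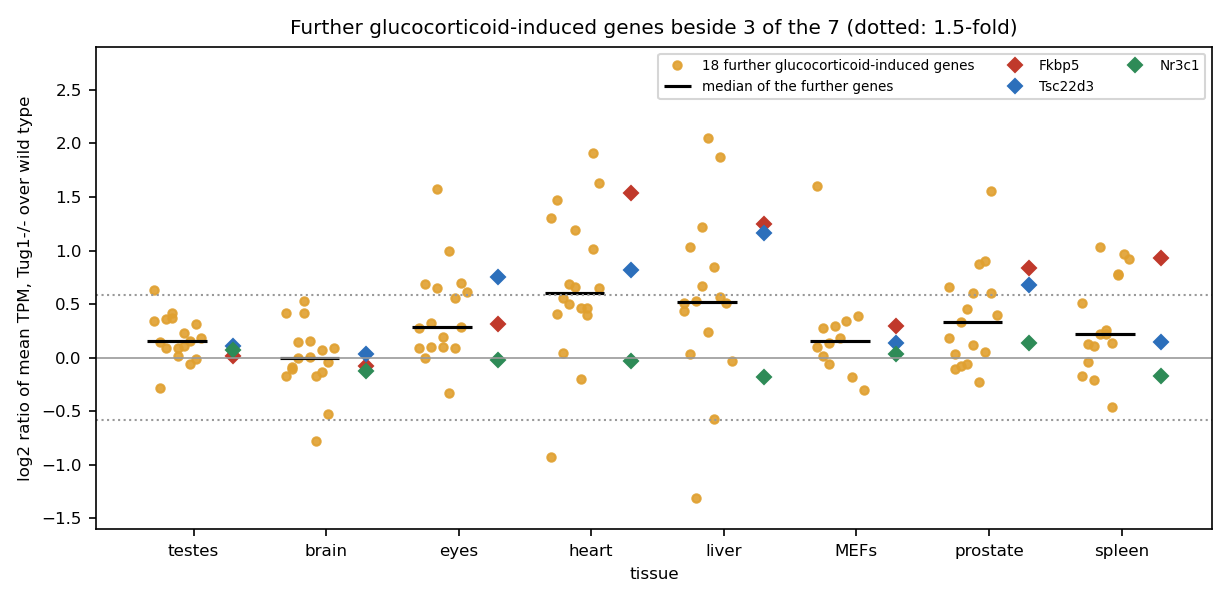
Log2 ratio of mean TPM, Tug1-/- over wild type, in 8 tissues for the measured genes of the further 18 (orange points, with their median as a black bar) and for Fkbp5, Tsc22d3 and Nr3c1 (diamonds); dotted lines mark 1.5-fold in either direction. The medians are 0.60 in heart and 0.52 in liver and 0.00 in brain, and the green Nr3c1 diamond stays between the dotted lines in every tissue.

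Genes that respond to acute stimulation, time of day or inflammation were read beside the members. Immediate early genes had lower means in Tug1-/- mice in several of the same tissues: 0 of 6 measured genes in heart, 1 of 6 in liver and 0 of 8 in spleen had ratios above 0, against 75.3%, 52.7% and 29.6% of all genes in these tissues, with medians of -0.39, -0.45 and -0.46. Fos had 14.9 and 6.45 TPM in heart and 12.4 and 5.19 TPM in spleen. Of 12 clock genes, 3 of 11 measured in heart were higher, Per2 (7.56 and 17.7 TPM), Per1 (26.9 and 42.5 TPM) and Ciart (10.6 and 16.6 TPM), 2 of 12 in prostate, Per2 and Per1, and 1 of 10 in liver, Ciart. Per1 is itself a glucocorticoid-induced gene and is in both lists. Dbp, a clock output gene, had 56.9 and 59.5 TPM in heart and 61.6 and 61.2 TPM in liver, and is named there after its values were seen. It had 23.4 and 17.4 TPM in spleen, where 1 of 11 clock genes had a ratio above 0 and none passed the limit. Of 8 acute phase genes, 5 of 5 measured were higher in prostate, 3 of 5 in eyes, 3 of 5 in testes, 2 of 8 in liver, 2 of 5 in spleen and 2 of 3 in MEFs, and 2 of 4 were lower in heart. The shares of all genes past the limit, for these lists and the cell type lists below, are given above by tissue. The part of these genes in the members' values was not tested.

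Markers of other cell types also differed in the tissues with higher members. In heart 4 of 6 skeletal muscle genes were lower, with Tnnt3 at 31.5 and 0.763 TPM and Myh4 listed at 0 in Tug1-/- mice, while the summed level of the list, 1302.1 and 1378.2 TPM, was carried by Ckm (1005.4 and 1199.1 TPM) and Acta1 (234 and 177 TPM), which heart muscle also expresses, and 4 of 4 fat genes were lower, with sums of 72.5 and 35.4 TPM. In eyes 6 of 6 muscle genes (sums of 5774.3 and 10254.0 TPM), 5 of 5 fat genes (73.4 and 247 TPM) and 5 of 5 erythroid genes (699 and 2178.6 TPM) were higher. In prostate 5 of 5 fat genes (29 and 128 TPM), 6 of 8 macrophage genes (277 and 433 TPM), 4 of 5 erythroid genes (161 and 292 TPM), 3 of 7 seminal vesicle genes (22301.7 and 67098.2 TPM) and 2 of 2 measured adrenal cortex genes (5.74 and 11.6 TPM) were higher. The seminal vesicle sum was carried by Svs2, Svs5 and Pate4, and Svs1, Svs3a and Svs6 had lower means in Tug1-/- mice, with ratios of 0.69 to 0.70. In spleen 5 of 5 erythroid genes were higher (24887.4 and 44735.8 TPM). Lower there were 1 of 1 measured fat gene (2.97 and 2.23 TPM), 1 of 2 muscle genes (22.7 and 25 TPM) and 1 of 3 Leydig cell genes (140 and 113 TPM). The part of these cell types in the members' values was not tested.

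Liver had the highest ratios of Mt1 and Mt2. There 2 of 8 macrophage genes were higher, with sums of 305 and 461 TPM, and of the steroid-synthesis genes in the Leydig cell list 1 of 2 measured was higher, Cyp17a1 (6.75 and 34.2 TPM), with sums of 8.45 and 35.8 TPM. No measured gene of the fat, muscle or erythroid lists passed the limit in liver (sums of 3.48 and 3.92, 1.8 and 1.8, and 779 and 788 TPM). Adrenal cortex genes were all below the minimum level (0.764 and 1.17 TPM), and no seminal vesicle gene was listed. The part of these cell types in the liver values was not tested. In testes 3 of 6 Leydig cell genes (528 and 805 TPM) and 6 of 6 muscle genes (5.43 and 45.2 TPM) were higher, as were 2 of 4 measured fat genes (28.7 and 30.4 TPM), and 4 of 5 erythroid genes were lower (47.3 and 39.6 TPM), with no member past the limit.

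Likeness between members was measured as Pearson's r over the 8 tissues, which share their wild-type and Tug1-/- groups between genes, so it is given as a description. The log2 ratios of Mt1 and Mt2 followed each other most closely, with r = 0.98. Fkbp5 had r = 0.71 with Tsc22d3, 0.74 with Mt1 and 0.76 with Mt2, and r = -0.25 with the receptor gene Nr3c1, which ran from -0.47 to -0.04 when 1 tissue was left out. Nr3c1 had r = -0.70 with Mt1 and -0.73 with Mt2. Sgk1 had r = 0.35 with Fkbp5, 0.04 with Mt1 and -0.05 with Mt2. Among the 9586 other genes, the 5 whose ratios were most like those of Mt1 were Mt2 (0.977), Dynll1 (0.949), Gm7332 (0.932), Tuft1 (0.917) and Noct (0.910). The 5 most like Fkbp5 were Ube2f (0.979), Slc35e2 (0.956), Ell2 (0.936), Tpra1 (0.931) and Pik3r1 (0.930).

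Wild-type levels gave other neighbours. Over the 8 wild-type tissues, the log2 level of Mt1 was most like those of Mt2 (0.976), Cystm1 (0.960), Tmed4 (0.937), Slc7a4 (0.923) and Cyb561 (0.917), and that of Fkbp5 was most like those of Ecd (0.983), Gtf2b (0.978), Becn1 (0.978), Ehmt2 (0.970) and Rpf2 (0.964). Mt2 was the first neighbour of Mt1 on both measures, while none of the 5 genes nearest to Fkbp5 recurred. Tsc22d3 levels followed those of Nr3c1 with r = 0.90, both being highest in spleen and brain and lowest in testes.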

How the data were processed

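Poly(A) RNA was sequenced as paired-end reads after a kit that does not mark strand. The authors aligned reads to GRCm38 (mm10) with STAR and GENCODE annotation, counted uniquely mapped reads with featureCounts, removed a gene when all replicates had below 3 reads, and ran DESeq2 with fdrtool; the submitters' processing notes also name CASAVA 1.8.2. The deposited tables hold the authors' mean TPM per group and, outside testes, a mean normalized count over both genotypes, an abundance signal that the authors scaled for depth. Neither gives values of replicates. Their further columns hold the authors' own log2 fold changes, standard errors, test statistics and p-values for each comparison, and were not used.

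Ratios of mean TPM were computed in Python 3.11.15 with numpy 2.4.6 and pandas 2.3.3, without pseudocount, for genes with a mean of at least 1 TPM. The ratio and background counts were checked on simulated data. No interval or test was computed, since single samples were not used. Samples were grouped by GEO's labels. The 7 members, the 14 gene lists and the 1.5-fold limit were chosen with earlier results of these data known. Named genes are the members, up to 4 of each list with the highest absolute ratios, and the 5 most alike to Fkbp5 and Mt1. Any other gene was named after its values were seen, also where the text does not say so. Alternatives were pseudocounts of 0.1 and 1 TPM, centring, rescaling, fold limits of 0.32 (log2) and of 2-fold, a minimum of 10 TPM, no minimum, and tissues left out. Sequences are RefSeq's.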

Additional observations from a re-analysis of the deposited data

How the results depend on the processing

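At a lower limit of 0.32 on the log2 scale, 1 member passed in testes (13.7% of all genes in either direction), 2 in eyes (20.8%), 1 in MEFs (20.2%), 4 in prostate (17.7%), 6 in heart (11.9%), 5 in liver (16.9%) and 1 for rescue against Tug1-/- (10.9%), where Sgk1 was lower. In spleen the same 3 members passed at this limit as at 1.5-fold, and in brain 0 passed (11.5%). At a limit of 2-fold, 0 passed in eyes (1.7% of all genes), 2 in heart (1.22%), 0 in prostate (2.93%), 1 in spleen (3.14%) and 4 in liver (1.62%). Under the pseudocounts, centring, rescaling and other minimums, 407 of 409 member values stayed on their side of the limit; the 2 exceptions were Sgk1 in heart, given above. A minimum of 10 TPM left heart with 4 (1.41% of all genes) and liver with 3 (3.25%), since Fkbp5 in heart and Mt2 in liver have lower means. The median log2 ratio of all genes was -0.11 in eyes and spleen and 0.10 in heart, and relative to it no member other than Sgk1 in heart changed side. No paired analysis was possible because the tables hold group means only, and for the same reason leaving out single replicates was not run. No spread between samples is given with these values, and prostate in Tug1-/- mice had 2 samples.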
